A study of Mus musculus with 3 samples.

Results

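The genes described here are 36 genes of the vascular and lymphatic endothelium, chosen by name with earlier results of these data known. Of these, 35 were measured among 19938 genes with a probe set of their own, and Selp was not analysed here. A gene was taken from a probe set that carries its symbol alone, and each of the 35 had 1 such probe set. RNA of the distal colon was measured on day 7 on 3 arrays, 1 for each group: IL-4Rα-/- mice given 3% DSS (IL-4Rα-/- colitis, a pool of 6 mice), WT mice given 3% DSS (WT colitis, a pool of 3 mice) and WT mice given water (WT normal, a pool of 4 mice). All were male BALB/c littermates aged 10 to 12 weeks, and the IL-4Rα-/- mice carry the germline Il4ra tm1Sz allele, so the deficiency is not limited to the vessel wall. IL-4Rα is the receptor subunit shared by IL-4 and IL-13, and DSS (dextran sulfate sodium) is a polymer in drinking water that injures the colon epithelium. The disease activity index of the pooled mice ran from 0 to 3 in IL-4Rα-/- colitis and from 3 to 4 in WT colitis, and it was 0 in WT normal. IL-4Rα-/- mice without DSS were not analysed here, so an effect of the genotype itself and a milder response to DSS cannot be told apart.

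Endothelial cells line blood and lymphatic vessels. They are held together by VE-cadherin and claudin 5, depend on VEGF and angiopoietin signals for growth and stability, and admit leukocytes into tissue when cytokines such as TNF, IL-1 and IL-4 induce adhesion molecules on their surface. In the colon, fenestrated capillaries and venules of the mucosa carry out absorption and leukocyte entry, while lymphatic vessels drain fluid, and both vessel types remodel in colitis.

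Values are deposited log2 signals, so a difference of 1 is 2-fold, and a gene was counted as different when it was more than 2-fold higher or lower. With 1 array per group there is no replicate error, no test and no p-value for any difference below. Counts and medians of the list are set beside those of all genes instead. The list was chosen with earlier results known, so this contrast is a description and not independent support. As a guide to background, 1210 probe sets of olfactory and vomeronasal receptors had a median log2 signal of 2.44 and a 95th percentile of 3.50. Sox17, Angpt2, Esm1 and Sele lay at or below 3.50 on each array, and their differences carry no information. The deposited values were tied on all 3 arrays, to 2 decimals, at 46.9% of the 28944 probe sets, for which the cause was not tested, and median signals were 4.11 in IL-4Rα-/- colitis, 4.18 in WT colitis and 4.11 in WT normal. Il4ra, which is disrupted in the knockout, read 4.76 in IL-4Rα-/- colitis, 6.63 in WT colitis and 5.69 in WT normal. The defining markers of endothelium were present on each array, with Cdh5 at 5.64 or more, Pecam1 at 5.44 or more and Emcn at 5.84 or more. Those of lymphatic endothelium were present too, with Lyve1 at 6.17 or more and Prox1 at 4.23 or more.

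The question put to the colitis arrays was whether endothelial transcripts differ between IL-4Rα-/- and WT mice given DSS. Of the 35 genes, 32 had a lower signal in IL-4Rα-/- colitis relative to WT colitis, 0 had a higher one and 3 were equal, where 52.3% of all genes were equal. The median log2 difference was -0.51, against 0.00 over all genes, of which 37.3% were lower and 10.4% higher by any amount. Of all genes, 7338 lay at or below the background guide on each array, against 4 of the 35 members. Among the other 12600 genes the median was also 0.00, with 44.4% lower, 14.6% higher and 1.43% more than 2-fold lower. Of the other 31 members, 29 were lower. Lower by more than 2-fold were 3 of the 35, namely Pdpn, Vcam1 and Cdh5, while 0.908% of all genes were, and 0 members were more than 2-fold higher, against 0.271% of all genes. Lower by more than 1.5-fold were 12 members, against 3.33% of all genes, and 0 were lower by more than 4-fold, against 0.150%. The share of genes on each side of 0 depended on the scaling of the arrays. After quantile normalization, 66.8% of all genes were higher and 29.4% lower, and 27 of the 35 members were still lower while 5 were higher. These 5 were Cldn5, Nos3, Angpt2, Apln and Icam2, with deposited differences of -0.07 or nearer to 0. In RNA of whole tissue, fewer endothelial cells and less RNA per cell cannot be told apart.

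Against untreated tissue, the WT mice given DSS differed the other way. In WT colitis, 31 of the 35 genes had a higher signal relative to WT normal, 0 had a lower one and 4 were equal, with a median log2 difference of 0.43, against 0.00 over all genes, of which 35.8% were higher, 12.0% lower and 52.3% equal. Higher by more than 2-fold were Vcam1, Pdpn and Cdh5, or 3 of 35, against 1.16% of all genes, and higher by more than 1.5-fold were 10 of 35, against 4.11% of all genes. Among the 12600 genes above the background guide on at least 1 array, 44.7% were higher, 15.8% lower and 1.83% more than 2-fold higher. Of the 31 such members, 28 were higher. Vcam1 alone was more than 4-fold higher, against 0.181% of all genes, and 0 members were more than 2-fold lower, against 0.456%. After quantile normalization, 29 of the 35 were higher and 6 lower, while 28.7% of all genes were higher and 66.5% lower. The WT colitis array serves in both comparisons, and a deviation of that single array would show in each. The WT normal pool had high transcripts of the exocrine pancreas, with 9 of 9 measured pancreatic genes lower by more than 2-fold on the WT colitis array, and the part of this tissue in the endothelial values was not tested.

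Between IL-4Rα-/- colitis and WT normal, 1 of 35 genes was more than 2-fold different. It was Vcam1, which was higher, as were 0.186% of all genes, and 0 members were more than 2-fold lower, against 0.336%. By more than 4-fold 0 members were higher, against 0.0251% of all genes. By any amount 8 members were lower and 1 higher, against 17.9% and 16.4% of all genes. Another 26 of the 35 had exactly the same value on both arrays, and 30 of 35 lay within 0.1 of each other on the log2 scale. Over all genes 65.8% were equal between these arrays and 80.6% lay within 0.1. Beyond 0.1 were Cd34, Eng, Pdpn and Kdr, with lower signals in IL-4Rα-/- colitis, and Vcam1. The pancreatic transcripts of the WT normal pool bear on this comparison too, with 9 of 9 measured genes more than 2-fold lower in IL-4Rα-/- colitis. Their part in the endothelial values was not tested.

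**Figure D1:**
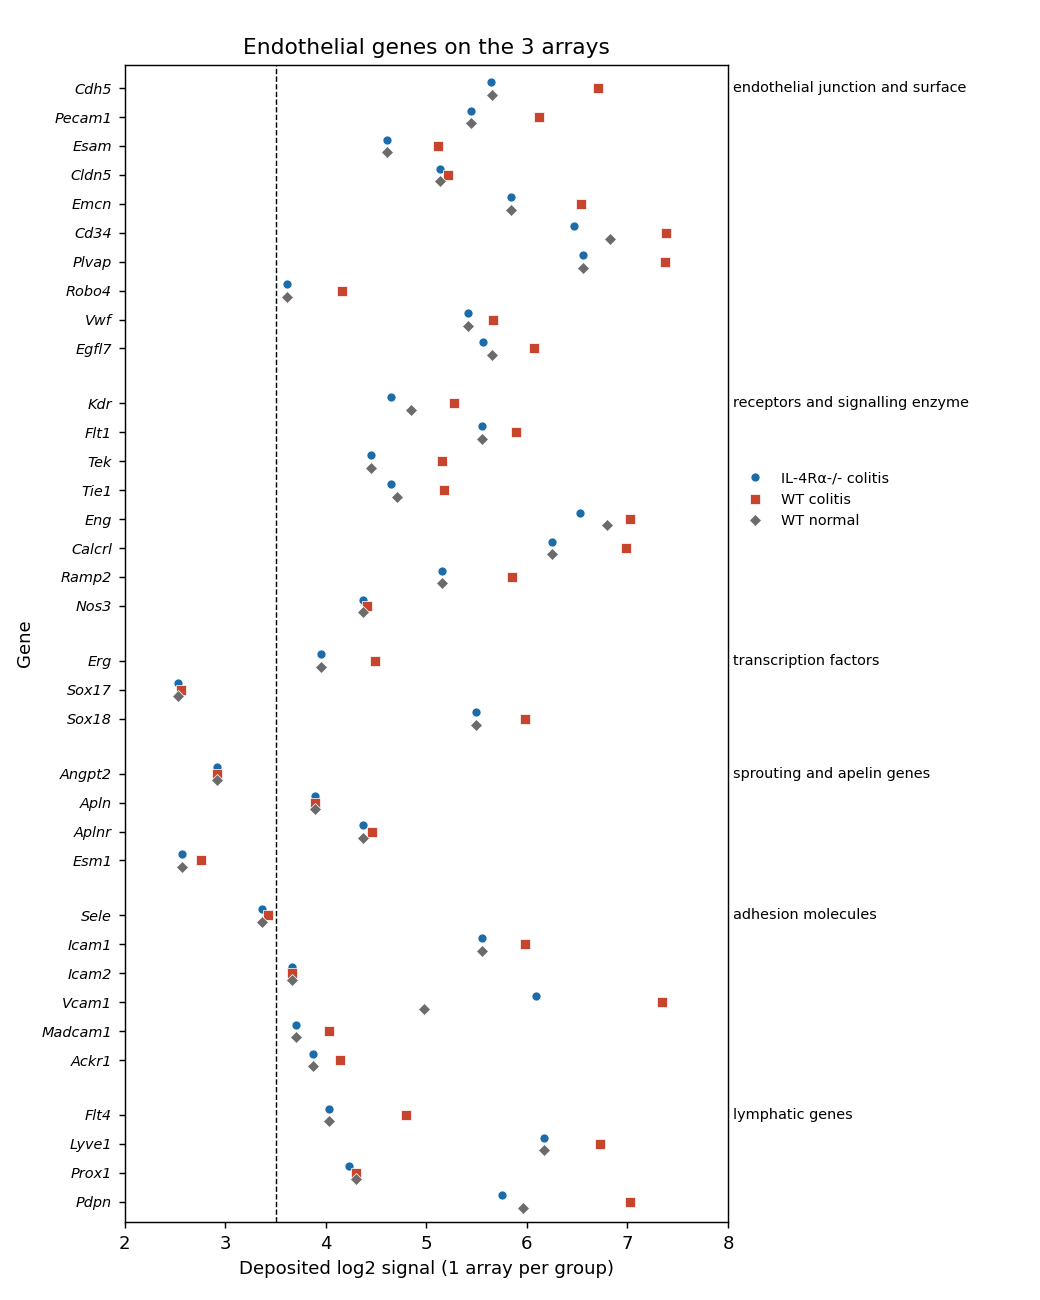
Deposited log2 signal (x axis) of 35 endothelial genes (y axis, grouped by role) on the IL-4Rα-/- colitis (circles), WT colitis (squares) and WT normal (diamonds) arrays, 1 array per group, with a dashed line at the background guide of 3.50. The squares lie to the right of both other symbols for most genes, and Vcam1 is the gene whose IL-4Rα-/- colitis value (6.09) lies clearly above that of WT normal (4.98).

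Among genes of the endothelial surface and junctions, all 10 had a lower signal in IL-4Rα-/- colitis relative to WT colitis, with a median difference of -0.615, and 1 passed 2-fold. Cdh5, which encodes VE-cadherin, the adhesion protein of endothelial adherens junctions, had a log2 signal of 5.64 in IL-4Rα-/- colitis, 6.71 in WT colitis and 5.65 in WT normal. It was thus 2.10-fold lower in IL-4Rα-/- colitis relative to WT colitis and 2.08-fold higher in WT colitis relative to WT normal, with both water-treated WT and DSS-treated IL-4Rα-/- pools at the same level. These differences of -1.07 and 1.06 lie close to the 2-fold limit, and after quantile normalization they were -0.97 and 0.95. Cldn5, the claudin of endothelial tight junctions, differed little, with 5.14 in IL-4Rα-/- colitis, 5.21 in WT colitis and 5.14 in WT normal. Esam, an immunoglobulin-like protein of endothelial tight junctions, lay between Cdh5 and Cldn5, at 4.61 in IL-4Rα-/- colitis, 5.12 in WT colitis and 4.61 in WT normal.

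Genes of capillary and venous surfaces followed Cdh5 with smaller differences. Plvap, which forms the diaphragms of fenestrated capillaries, had 6.56 in IL-4Rα-/- colitis, 7.37 in WT colitis and 6.56 in WT normal, a difference of -0.81 between the colitis arrays. Emcn, the sialomucin endomucin of capillaries and veins, had 5.84 in IL-4Rα-/- colitis, 6.54 in WT colitis and 5.84 in WT normal. Pecam1, a junctional protein that platelets and leukocytes also carry, had 5.44 in IL-4Rα-/- colitis, 6.12 in WT colitis and 5.44 in WT normal. All 3 were high on the WT colitis array alone. Cd34, a sialomucin of endothelium that stromal fibroblasts also express, had 6.47 in IL-4Rα-/- colitis, 7.38 in WT colitis and 6.83 in WT normal. It was the junction and surface gene furthest below WT normal in IL-4Rα-/- colitis, by a difference of -0.36. Robo4, a receptor that stabilises vessels, had 3.61 in IL-4Rα-/- colitis, 4.16 in WT colitis and 3.61 in WT normal, close to background. Egfl7, a protein secreted by endothelium, had 5.56 in IL-4Rα-/- colitis, 6.07 in WT colitis and 5.65 in WT normal. Vwf, the clotting factor stored in endothelial granules, had 5.41 in IL-4Rα-/- colitis, 5.66 in WT colitis and 5.41 in WT normal. These 3 differed by -0.55, -0.51 and -0.25 between the colitis arrays.

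The VEGF, TIE and adrenomedullin receptors were lower together in IL-4Rα-/- colitis relative to WT colitis. All 8 genes of this group, which includes Eng and Nos3, had a lower signal, with a median of -0.575 and a range from -0.74 to -0.04, and 0 passed 2-fold. Kdr, the main signalling receptor for VEGF, had 4.65 in IL-4Rα-/- colitis, 5.27 in WT colitis and 4.85 in WT normal. Flt1, a high-affinity VEGF receptor that also acts as a decoy, had 5.55 in IL-4Rα-/- colitis, 5.89 in WT colitis and 5.55 in WT normal. Both VEGF receptors were higher in WT colitis than on the other arrays. Tek, the angiopoietin receptor TIE2, had a log2 signal of 4.45 in IL-4Rα-/- colitis, 5.16 in WT colitis and 4.45 in WT normal. Tie1, its partner receptor, had 4.65 in IL-4Rα-/- colitis, 5.18 in WT colitis and 4.71 in WT normal. Each TIE receptor was also highest in WT colitis, and of these 4 genes Kdr lay furthest below WT normal in IL-4Rα-/- colitis, at -0.20. Calcrl and Ramp2 encode the receptor for adrenomedullin and its partner protein, a pair needed for vascular and lymphatic integrity. Calcrl had 6.25 in IL-4Rα-/- colitis, 6.99 in WT colitis and 6.25 in WT normal. Ramp2 had 5.16 in IL-4Rα-/- colitis, 5.85 in WT colitis and 5.16 in WT normal. Their differences were nearly equal, -0.74 for Calcrl and -0.69 for Ramp2 between the colitis arrays. Both genes were tied between IL-4Rα-/- colitis and WT normal, and the cause of such ties was not tested. Their differences of 0.74 and 0.69 between WT colitis and WT normal therefore repeat the same values with the sign changed. Eng, a co-receptor for TGF-β family ligands, had 6.53 in IL-4Rα-/- colitis, 7.03 in WT colitis and 6.80 in WT normal. Nos3, endothelial nitric oxide synthase, differed by only -0.04 between the colitis arrays, and after quantile normalization by 0.06.

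Of 10 measured vascular ligands, 6 had a lower signal in IL-4Rα-/- colitis relative to WT colitis, 4 were equal and 0 were higher. Over all genes 37.3% were lower, 52.3% equal and 10.4% higher. The median of the ligands was -0.33, and 0 passed 2-fold in either comparison. On each array 3 of the 10 lay at or below the background guide, among them Pgf and Angpt1, which are counted as lower. Adm, the ligand of the Calcrl and Ramp2 receptor, had 4.29 in IL-4Rα-/- colitis, 5.10 in WT colitis and 4.29 in WT normal. Angpt1, which activates TIE2, had 2.38 in IL-4Rα-/- colitis, 3.22 in WT colitis and 2.42 in WT normal, all below the background guide, so that its difference is not read. Vegfa, the principal VEGF receptor ligand, had 6.96 on each array. Such ties cover 46.9% of probe sets and their cause was not tested, so the equal values are not read as unchanged Vegfa. Vegfb had 6.76 in IL-4Rα-/- colitis, 7.21 in WT colitis and 7.17 in WT normal. Vegfc, a ligand of the lymphatic receptor Flt4, had 3.95 on each array. Vegfd, another Flt4 ligand, had 3.46 in IL-4Rα-/- colitis, 3.95 in WT colitis and 3.46 in WT normal, near background.

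**Figure D2:**
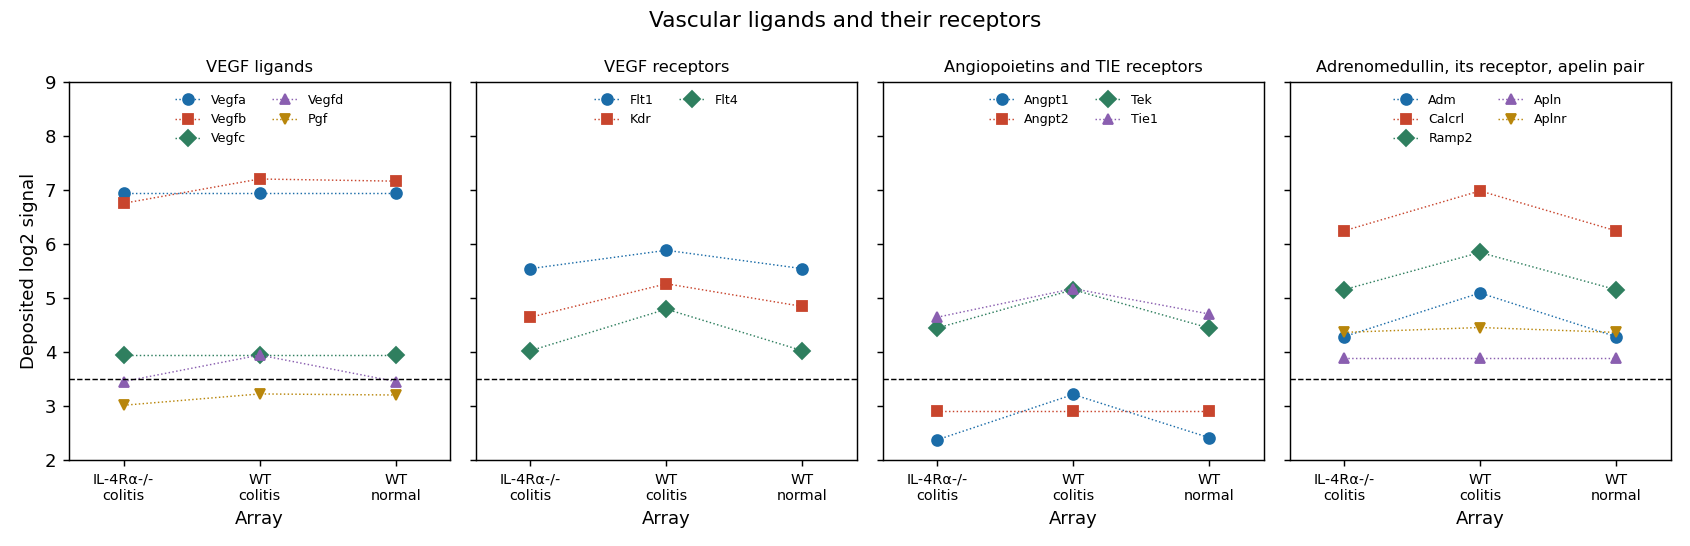
Deposited log2 signal (y axis) of vascular ligands and receptors on the IL-4Rα-/- colitis, WT colitis and WT normal arrays (x axis), 1 array per group, with a dashed line at the background guide of 3.50 and dotted lines joining the points of a gene. Tek, Flt4, Calcrl, Ramp2 and Adm are highest in WT colitis, whereas Vegfa and Vegfc have the same value on all 3 arrays (6.96 and 3.95).

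Transcription factors of endothelial identity had the direction of the surface genes. Erg, an ETS factor that maintains endothelial identity, had a log2 signal of 3.95 in IL-4Rα-/- colitis, 4.49 in WT colitis and 3.95 in WT normal. Sox18, which acts in arterial and lymphatic development, had 5.49 in IL-4Rα-/- colitis, 5.98 in WT colitis and 5.49 in WT normal. Relative to WT colitis, Erg was 1.45-fold lower in IL-4Rα-/- colitis and Sox18 differed by -0.49, and both had the same value as in WT normal, while Sox17 was at background. Genes of sprouting vessels were dim or differed little. Angpt2, the angiopoietin of remodelling vessels, and Esm1, a marker of tip cells, were at background. Apln, the peptide apelin, had 3.89 on each array. Its receptor Aplnr had 4.37 in IL-4Rα-/- colitis, 4.46 in WT colitis and 4.37 in WT normal. The group's median difference between the colitis arrays was -0.045, and 0.03 after quantile normalization.

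Because an ETS factor belongs to the list, the 250 bases before the annotated start sites were searched for the ETS letters AGGAAG or CGGAAG on both strands. Of the 36 genes, 22 had a promoter in the RefSeq table (GRCm38.p6), with 27 start sites. The letters occurred in 15 of the 27 promoters (55.6%) and in 39.2% of all 32851 promoters in the table. They are short and frequent, and a match is not a binding site. The promoter of Tie1 (chr4:118489850-118490099, minus strand) is shown because it held both forms of the letters, which stand in capitals 232 to 227 and, on the other strand, 219 to 214 bases before the start.
Tie1: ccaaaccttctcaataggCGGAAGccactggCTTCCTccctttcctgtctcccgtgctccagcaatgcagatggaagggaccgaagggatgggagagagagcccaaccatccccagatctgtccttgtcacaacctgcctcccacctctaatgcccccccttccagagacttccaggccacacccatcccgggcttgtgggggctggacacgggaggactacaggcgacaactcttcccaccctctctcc

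The adhesion molecules, considered apart, differed widely among themselves. Of 6 measured genes, 5 had a lower signal in IL-4Rα-/- colitis relative to WT colitis and 1 was equal, with a median difference of -0.30, and 1 passed 2-fold. Vcam1, the ligand of α4 integrins on lymphocytes, monocytes and eosinophils, had a log2 signal of 6.09 in IL-4Rα-/- colitis, 7.34 in WT colitis and 4.98 in WT normal. It was 5.13-fold higher in WT colitis relative to WT normal, the largest difference of the 35 genes. The IL-4Rα-/- colitis value was 2.38-fold below that of WT colitis and still 2.16-fold above that of WT normal. With an offset of 32 on linear signals, which reduces differences, these log2 differences were -0.95 and 0.66, and neither passed 2-fold. It was therefore intermediate on the IL-4Rα-/- array, which kept 47.0% of the log2 difference seen in WT colitis. IL-4 is a known inducer of VCAM-1 on cultured human endothelial cells, but fibroblasts and macrophages also express the gene, and the cells behind its signal were not resolved here.

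The other adhesion genes had small differences or low signals. Icam1, the ligand of leukocyte β2 integrins, had 5.55 in IL-4Rα-/- colitis, 5.98 in WT colitis and 5.55 in WT normal, 1.35-fold lower in IL-4Rα-/- colitis relative to WT colitis. Madcam1, the gut venule receptor for α4β7 integrin, had 3.70 in IL-4Rα-/- colitis, 4.03 in WT colitis and 3.70 in WT normal, close to background. Ackr1, the chemokine-binding receptor of venules, had 3.87 in IL-4Rα-/- colitis, 4.14 in WT colitis and 3.87 in WT normal. In contrast with Vcam1, these 3 genes were listed with the same value in IL-4Rα-/- colitis and in WT normal. Icam2, which resting endothelium expresses, had 3.66 on each array, and Sele, the selectin E of activated endothelium, did not exceed background.

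Promoters of 2 adhesion genes are shown because cytokines induce these genes through NF-κB, with the 250 bases before the start searched on both strands (RefSeq, GRCm38.p6). Capitals mark matches to its consensus in Madcam1 and other letters, GGAAATTCC, in Icam1. Madcam1 (chr10:79664309-79664558, plus strand) held 2 matches to the NF-κB consensus, both on the other strand, 83 to 74 and 70 to 61 bases before the start. The consensus occurred in 3 of 27 member promoters (11.1%; Flt1, Kdr and Madcam1) and in 7.25% of all promoters. Vcam1 had no promoter among those given and was not searched. Icam1 (chr9:21015690-21015939, plus strand) had no match to the consensus and held the other letters 153 to 145 bases before the start. These were taken from the Icam1 sequence itself, so their presence there is no finding, and 0.286% of all promoters held them. The matches do not say whether the factor bound, and their relation to the differences between arrays was not tested.
Madcam1: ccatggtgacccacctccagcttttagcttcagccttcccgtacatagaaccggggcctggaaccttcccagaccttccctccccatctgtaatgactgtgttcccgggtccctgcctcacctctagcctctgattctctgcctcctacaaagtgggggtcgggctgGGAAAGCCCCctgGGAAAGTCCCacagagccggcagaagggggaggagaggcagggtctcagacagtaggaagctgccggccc
Icam1: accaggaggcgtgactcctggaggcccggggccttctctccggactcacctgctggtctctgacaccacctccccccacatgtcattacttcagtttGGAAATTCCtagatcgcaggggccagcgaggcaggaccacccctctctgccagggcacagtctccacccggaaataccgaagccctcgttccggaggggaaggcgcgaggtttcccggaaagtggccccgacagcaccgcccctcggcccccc

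Lymphatic genes, also considered apart, had a median difference of -0.665 between IL-4Rα-/- colitis and WT colitis over 4 genes, with all 4 lower and 1 past 2-fold. Pdpn, the mucin-type protein podoplanin of lymphatic endothelium that fibroblastic stroma also expresses, had a log2 signal of 5.75 in IL-4Rα-/- colitis, 7.03 in WT colitis and 5.96 in WT normal. It was 2.43-fold lower in IL-4Rα-/- colitis relative to WT colitis and 2.10-fold higher in WT colitis relative to WT normal. After quantile normalization these differences were -1.18 and 0.96, and with the offset -0.92 and 0.79. Flt4, the VEGF receptor of lymphatic endothelium, had 4.03 in IL-4Rα-/- colitis, 4.80 in WT colitis and 4.03 in WT normal. Lyve1, a hyaluronan receptor of lymphatic capillaries and of some macrophages, had 6.17 in IL-4Rα-/- colitis, 6.73 in WT colitis and 6.17 in WT normal. In contrast, Prox1, the transcription factor that specifies lymphatic endothelium, had 4.23 in IL-4Rα-/- colitis, 4.30 in WT colitis and 4.30 in WT normal. The 4 genes thus had unequal differences on the same arrays. In RNA of whole tissue the cells behind each signal, that of Prox1 included, were not resolved. Of 8 further measured lymphatic genes, 6 were lower in IL-4Rα-/- colitis relative to WT colitis and 2 equal, against 37.3% and 52.3% of all genes. Their median was -0.395, and 0 passed 2-fold.

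Endothelial genes outside the list had the same direction with smaller medians. Of 22 further endothelial genes, 19 had a lower signal in IL-4Rα-/- colitis relative to WT colitis, 3 were equal and 0 were higher, with a median of -0.325. Over all genes 37.3% were lower. On each array 5 of the 22 lay at or below the background guide. Past 2-fold was 1 of them, against 0.908% of all genes, namely Cyyr1, with 5.41 in IL-4Rα-/- colitis, 6.46 in WT colitis and 5.41 in WT normal. Adgrl4, an adhesion G protein-coupled receptor of endothelium, was more than 2-fold higher in WT colitis relative to WT normal, with 4.75 in IL-4Rα-/- colitis, 5.71 in WT colitis and 4.34 in WT normal. Like Vcam1 it was intermediate in IL-4Rα-/- colitis. Of 19 co-receptor and Notch pathway genes, 16 were lower in IL-4Rα-/- colitis relative to WT colitis and 0 higher, with a median of -0.13 and 0 past 2-fold. S1pr1, the sphingosine 1-phosphate receptor of endothelium and lymphocytes, was the gene of this group more than 2-fold higher in WT colitis relative to WT normal, with 4.41 in IL-4Rα-/- colitis, 5.32 in WT colitis and 4.03 in WT normal.

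Markers of pericytes and fibroblasts differed in the same direction as the endothelial genes, and so did most but not all leukocyte markers. Of 8 pericyte genes, 3 were more than 2-fold lower in IL-4Rα-/- colitis relative to WT colitis and 0 higher, with a median of -0.69, and their summed linear signal was 497 in IL-4Rα-/- colitis, 1025 in WT colitis and 511 in WT normal. Kcnj8 and Abcc9, the subunits of the vascular ATP-sensitive potassium channel, had the largest differences, -1.79 and -1.43. Pdgfrb, the PDGF receptor of pericytes, differed by -1.09. Kcnj8 had 5.73 in IL-4Rα-/- colitis, 7.52 in WT colitis and 5.66 in WT normal. Of 8 fibroblast genes, 2 were more than 2-fold lower, Dcn (-1.27) and Pdgfra (-1.03), with a median of -0.73 and summed signals of 2008 in IL-4Rα-/- colitis, 4009 in WT colitis and 2131 in WT normal. The 35 endothelial genes summed to 1281 in IL-4Rα-/- colitis, 2023 in WT colitis and 1306 in WT normal. Linear sums are set mostly by the brightest genes of a list, for fibroblasts Dcn (10.76 in WT colitis) and Fn1 (10.36). For WT colitis minus WT normal the medians were 0.605 for pericytes, with 2 genes more than 2-fold higher, and 0.635 for fibroblasts, also with 2. Of 11 leukocyte genes, 8 were lower and 2 higher in IL-4Rα-/- colitis relative to WT colitis and 0 passed 2-fold, with a median of -0.46. The 2 higher were the T cell genes Cd8a (0.38) and Cd3g (0.15), and Cd3e was equal. Among the 8 lower, Csf1r (-0.13) and Adgre1 (-0.02) differed little. The summed signals were 1399 in IL-4Rα-/- colitis, 2049 in WT colitis and 1438 in WT normal, with Lyz2 the brightest gene (10.12 in WT colitis). Ms4a1, the B cell gene for CD20, was the leukocyte gene more than 2-fold higher in WT colitis relative to WT normal, with 5.05 in IL-4Rα-/- colitis, 5.99 in WT colitis and 4.87 in WT normal. Of 8 neutrophil genes, 4 lay at or below the background guide on each array and 1 passed 2-fold between the colitis arrays, S100a8, with 2.58 in IL-4Rα-/- colitis, 4.27 in WT colitis and 2.62 in WT normal. Of 4 measured platelet genes 1 passed, Ppbp, with 3.47 in IL-4Rα-/- colitis, 4.64 in WT colitis and 3.47 in WT normal. Both genes exceeded the background guide in WT colitis alone. Smooth muscle and epithelial genes did not share this pattern, with medians of -0.10 over 7 genes and 0.07 over 8 genes, and 0 past 2-fold. The part of pericytes, fibroblasts and leukocytes in the endothelial values was not tested.

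**Figure D3:**
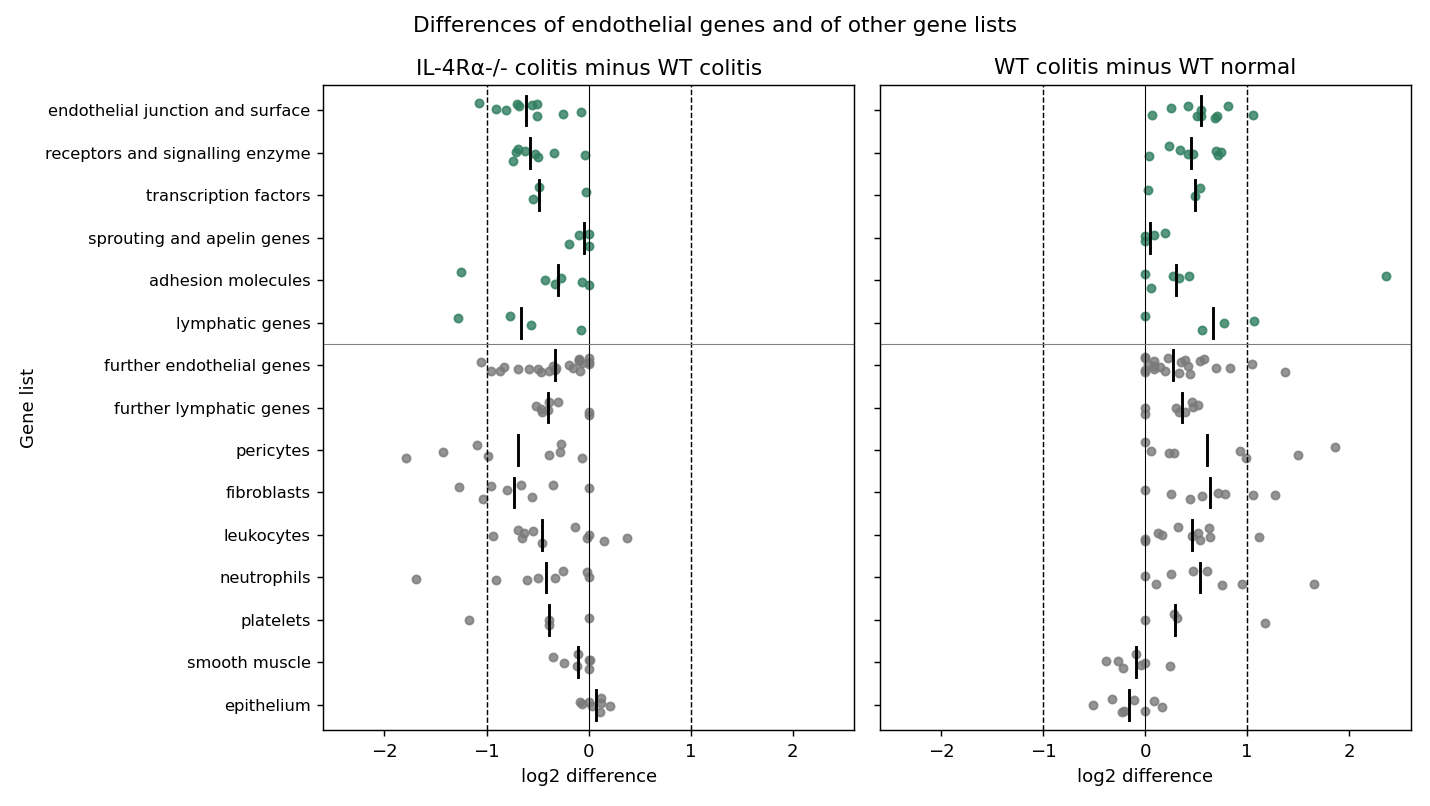
Log2 difference (x axis) of each measured gene by gene list (y axis) for IL-4Rα-/- colitis minus WT colitis (left) and WT colitis minus WT normal (right). Groups of the member genes are in green. Other lists, the further endothelial and further lymphatic genes among them, are in grey. A black bar marks each list's median, and dashed lines at 1 and -1 mark the 2-fold limit. The medians of the endothelial, pericyte and fibroblast lists lie below 0 on the left and above 0 on the right, while epithelium has medians of 0.07 and -0.16.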

How the data were processed

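The authors hybridised RNA of the distal colon, pooled within each group, to GeneChip Mouse Gene 1.0 ST arrays, analysed them with GeneChip software, and deposited 1 log2 signal per probe set (28944 in all, rounded to 2 decimals). The sample labels instead describe Cy3 labelling with an Agilent kit, but the probe identifiers match the GeneChip annotation. The method of summarising and normalizing the probes, software versions and genome build are not given in the sources used here.

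Probe sets with 1 gene symbol (21789, of which 21698 were matched to a RefSeq gene number for the present symbol) were used, while 1621 with several symbols and 5534 with none were not. A gene with more than 1 of these was represented by its brightest. Log2 differences were taken between arrays, and 1 array per group allowed no test. The members and lists were chosen with earlier results of these data known. All members were named. Of other lists, up to 4 genes with the largest differences past 2-fold were named, and further genes, the vascular ligands among them, were named after their values had been seen. Marker lists for neutrophils (1 of 8 genes past 2-fold between the colitis arrays), platelets (1 of 4), mesothelium (0 of 5) and red cells (0 of 1) were also examined. Counting steps were tested on simulated data. Python 3.11.15, numpy 2.4.6, pandas 2.3.3 and matplotlib 3.10.9 were used. Results were recomputed with quantile normalization, with median centring, without dim members, after adding 32 to each linear signal, with other choices of probe set and with other fold limits.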

Additional observations from a re-analysis of the deposited data

Results flagged for a closer look

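Of 6 mice in IL-4Rα-/- colitis, 1 reached a disease activity index of 3, far from the other 5, whose values were 0 or 1. The same mouse had the shortest colon of the 6, 8.2 cm, against 10.0 to 11.3 cm in the other 5. Colons of WT colitis mice measured 7.8 to 8.2 cm. In all, 5 groups of values were checked in this way. About 1 in 20 groups is marked by chance when values are normally distributed. That rate need not hold for an index in whole numbers with ties. The RNA of this mouse is part of the pool on the IL-4Rα-/- colitis array, and its share in the endothelial signals cannot be separated.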

How the results depend on the processing

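With 1 array per group, precision is limited by the single measurement, and no paired analysis was possible because no group has replicates. Between IL-4Rα-/- colitis and WT colitis, the list's median was -0.41 after quantile normalization and -0.44 with centring on the median, and the number of genes above 0 was 5 and 6. Vcam1 and Pdpn remained past 2-fold under both, and Cdh5 did not (-0.97 with quantile normalization). Between WT colitis and WT normal, 1 gene, Vcam1, was more than 2-fold higher under quantile normalization, centring and the offset, and the number below 0 was 6 with quantile normalization and 7 with centring. Between IL-4Rα-/- colitis and WT normal, quantile normalization gave 19 genes below 0 and 13 above 0, since it breaks equal values.

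Adding an offset of 32, which by construction reduces the differences of dim genes, gave medians of -0.26 between the colitis arrays, with 0 genes past 2-fold lower, and 0.21 for WT colitis minus WT normal, with 0 genes past 2-fold for IL-4Rα-/- colitis minus WT normal. Between the colitis arrays its group medians were -0.38 for junction and surface genes, -0.32 for receptors, -0.20 for transcription factors, -0.10 for adhesion molecules and -0.36 for lymphatic genes. For WT colitis minus WT normal they were 0.35, 0.22, 0.20, 0.10 and 0.36 in the same order. With a limit of 1.5-fold, 12 genes were lower between the colitis arrays and 10 higher in WT colitis relative to WT normal. With 4-fold, 0 were lower, 1 was higher in WT colitis relative to WT normal, and 0 were higher in IL-4Rα-/- colitis relative to WT normal. Leaving out 4 dim genes or choosing probe sets otherwise changed no count past 2-fold, but neither could have done so. Each measured member had 1 probe set, so every choice gave the same values. Of the 4 dim genes, Esm1 differed most, by -0.19 between the colitis arrays and 0.19 for WT colitis minus WT normal.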

Other observations

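Values are given here for cytokines that act on endothelium and for leukocyte partners of its adhesion molecules. Of 10 cytokines that activate endothelium, 0 passed 2-fold between IL-4Rα-/- colitis and WT colitis, and 6 lay at or below the background guide on each array. Il1b had a log2 signal of 4.96 in IL-4Rα-/- colitis, 5.71 in WT colitis and 4.96 in WT normal, whereas Tnf had 4.30 in IL-4Rα-/- colitis, 4.23 in WT colitis and 4.23 in WT normal. Il4 had 2.38 and Il13 had 3.50 on each array, so neither exceeded background. Il1a was more than 2-fold higher in WT colitis relative to WT normal, with 3.05 in IL-4Rα-/- colitis, 3.64 in WT colitis and 2.41 in WT normal, but only its WT colitis value lay above background. Of 11 genes for leukocyte ligands and integrins, 0 passed 2-fold in either comparison, with a median of -0.02 between the colitis arrays. Itga4, a subunit of the receptor for VCAM-1, had 6.15 in IL-4Rα-/- colitis, 6.37 in WT colitis and 5.88 in WT normal, and Itgb2, the β2 integrin chain, had 5.30 on each array. Itgam, the α chain that pairs with it on myeloid cells, had the largest difference of these 11 genes, with 4.43 in IL-4Rα-/- colitis, 5.25 in WT colitis and 4.43 in WT normal.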
